A study of Arabidopsis thaliana with 6 samples.

Results

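GH3.3 (AT2G23170), WES1 (AT4G27260, also called GH3.5) and IAA29 (AT4G32280) are auxin-responsive genes of Arabidopsis. They were taken by name and by locus, each through the only probe set assigned to that locus alone (245076_at for GH3.3, 253908_at for WES1 and 253423_at for IAA29), and they are 3 of the 13286 genes that could be named on the arrays. All 3 lay above the limit used here for an expressed gene (a mean log2 signal of 6.28, or a signal of 77.8), as did 7244 genes in all. RNA of rosette leaves was compared between 3 karyotypes in the Col-0 background, with 2 arrays each: trisomy 2 (*AAA*), which has a complete additional chromosome 2, tertiary trisomy 2 (*AAa*), and diploid wild type (WT). In *AAa* the additional chromosome carries the *aur2-1* T-DNA allele and joins the part of chromosome 2 up to AUR2 (AT2G25880) to the part of chromosome 3 that lies before AT3G20040. The *AAA* plants came from the same T-DNA line but lacked the insertion, and both trisomics were first scored by their round leaves. All plants were 26 days old, untreated, and grown at 22°C with 16 h of light and 8 h of dark, and the RNA of 21 to 35 plants was combined for an array. Since the sources used here do not say whether the arrays of a karyotype came from separate plantings, the p-values measure only the spread between these arrays, which may be technical. For each gene that spread is estimated mostly from the other expressed genes.

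Auxin is sensed by F-box receptors that, once bound to the hormone, mark the Aux/IAA proteins for degradation. Aux/IAA proteins, of which IAA29 is one, are repressors of the auxin response factors, and many of their own genes are switched on by auxin, so the pathway limits itself. GH3 enzymes join small acids to amino acids. GH3.3 and WES1 belong to the group that conjugates indole-3-acetic acid and so lowers the pool of free auxin, and WES1 has also been tied to salicylic acid. In leaves, auxin and its early response genes are known for their part in expansion, vein formation and the response to shade.

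GH3.3 has 3 copies in both trisomics and 2 in WT, because its locus lies on chromosome 2 before AUR2. WES1 and IAA29 are on chromosome 4 and have 2 copies in every karyotype. The median expressed gene with 3 copies in both trisomics was 1.45-fold higher than WT in *AAA* and 1.45-fold higher in *AAa* (410 genes, log2 0.53 and 0.54), while the median of 5467 non-triplicated genes lay at -0.01 and -0.00. Arrays of the same karyotype correlated at 0.983 to 0.987 over the expressed genes and arrays of different karyotypes at 0.955 to 0.965, where genes are not independent replicates.

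GH3.3, the IAA-conjugating enzyme gene with 3 copies in both trisomics, fell in *AAA* and did not pass the test in *AAa*. Its deposited signal was 92.0 and 96.1 in *AAA* and 309.5 and 304 in *AAa*, against 252 and 249 in WT. The 3 karyotypes did not overlap, with *AAa* highest, WT next and *AAA* far below both. After each array was centred on its non-triplicated genes, the mean was 96.7 ± 3.62 in *AAA*, 308 ± 1.10 in *AAa* and 243 ± 2.66 in WT (SD, n = 2 each). In *AAA* GH3.3 was at 0.397 of the WT level (log2 ratio -1.33, SE 0.18, 95% confidence interval -1.71 to -0.95, limma adjusted p = 1.30e-04). It was 1.26-fold above WT in *AAa*, which did not pass the test (log2 ratio 0.34, SE 0.18, interval -0.04 to 0.72, adjusted p = 0.206). The difference between the trisomics, which have the same 3 copies of the locus, was itself tested: GH3.3 was 3.2-fold higher in *AAa* than in *AAA* (log2 ratio 1.67, SE 0.18, interval 1.29 to 2.05, adjusted p = 9.64e-06).

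**Figure D1:**
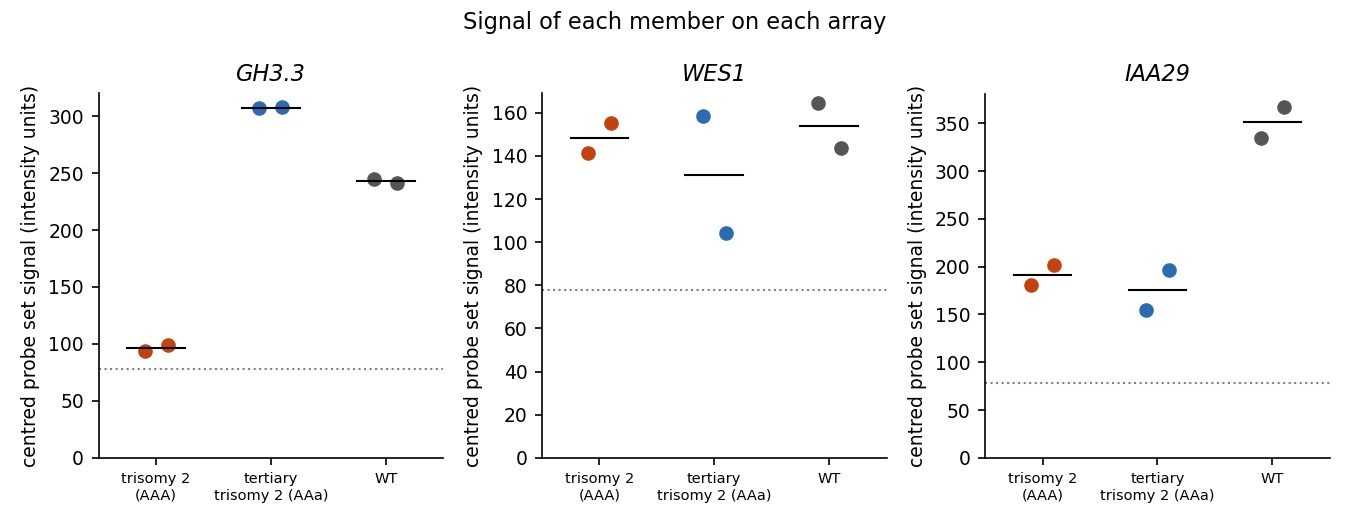
Centred probe set signal in intensity units (vertical axis, from 0) of GH3.3, WES1 and IAA29 on each of the 6 arrays, by karyotype; points are arrays, black lines are group means, and the dotted line is the limit of 77.8 for an expressed gene. GH3.3 is low on both *AAA* arrays alone, IAA29 is lower on all 4 trisomic arrays than on either WT array, and the WES1 groups overlap.

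Few genes with 3 copies behaved as GH3.3 did in *AAA*. Of 1055 expressed genes of chromosome 2, 6 were called lower in *AAA* than in WT, or 0.569%. Among the 410 genes that have 3 copies in both trisomics, 1 had a lower ratio to WT than GH3.3 in *AAA* (AT2G20560). A higher ratio of *AAa* to *AAA* was seen for 1, AUR2 (log2 ratio 3.81), the locus of the *aur2-1* T-DNA insertion in *AAa*. Set beside the median of these 410 genes, GH3.3 was 3.64-fold lower in *AAA* than its copy class and 1.15-fold lower in *AAa*. In *AAa* 106 of the genes with the same copies had a lower ratio to WT, so GH3.3 sat within the bulk of that distribution. Of the same 410 genes, 6.83% were called higher in *AAa* than in *AAA*. The other 5 genes of chromosome 2 called lower in *AAA* were AT2G20560, AT2G19310, AT2G29500, AT2G47880 and AT2G32160. Of these, AT2G20560 and AT2G19310 have 3 copies in *AAa*, as GH3.3 does. Their log2 ratios to WT in *AAa* were -1.01 and -0.78, whereas that of GH3.3 was 0.34. AT2G29500, AT2G47880 and AT2G32160 have 2 copies in *AAa*, with log2 ratios there of -0.58, -0.97 and -0.19.

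**Figure D2:**
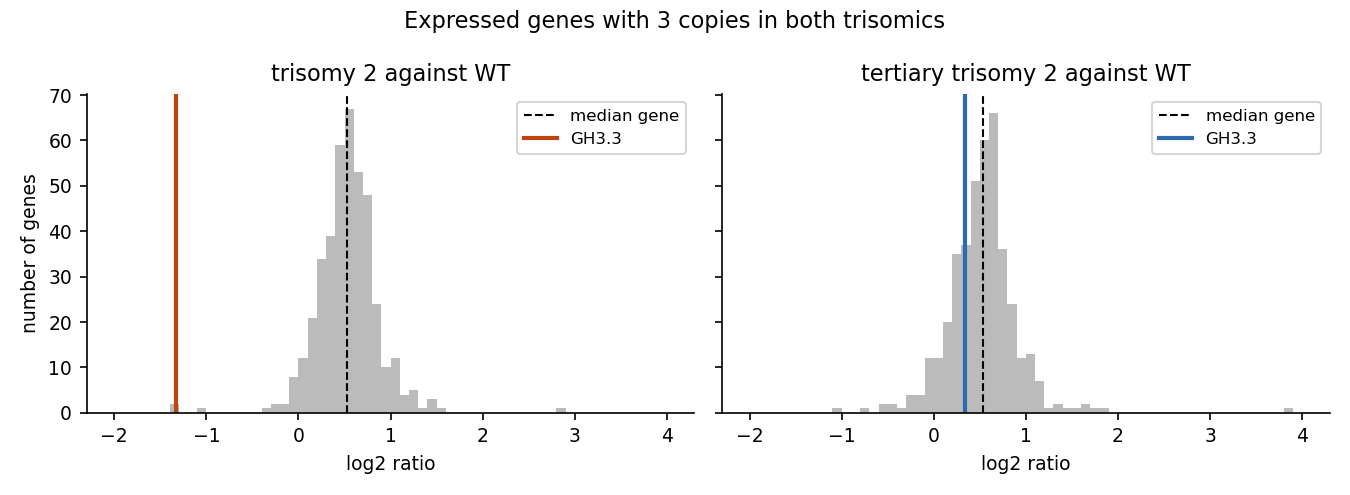
Number of genes (vertical axis) by log2 ratio to WT (horizontal axis) for the 410 expressed genes with 3 copies in both trisomics, in *AAA* (left) and *AAa* (right); the dashed line is the median gene and the coloured line GH3.3. GH3.3 lies at -1.33 in *AAA*, apart from the bulk of the genes, and at 0.34 in *AAa*, near the median of 0.54.

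The nearest genes that flank GH3.3 on chromosome 2 included 0 that were called lower in either trisomic. Of the expressed genes of chromosome 2 only 0.569% were called lower in *AAA*, and of all expressed genes 6.82% in *AAa*. A count of 0 among so few genes cannot be set apart from these shares. Over the 5 nearest expressed genes on each side, the median log2 ratio to WT was 0.53 in *AAA*, with a range from 0.19 to 1.23, and 6 of 10 rose and 0 fell, where 56.8% of the 410 genes with 3 copies in both trisomics rose. In *AAa* the median was 0.38, with a range from -0.05 to 1.02, and 5 of 10 rose and 0 fell, where 59.3% of the 410 genes rose. Between *AAa* and *AAA* the same 10 genes differed by a median of -0.15, with 0 calls in either direction. The low GH3.3 ratio in *AAA* was not seen in the genes next to it, nor in most genes of its copy class, where 408 of 410 had a higher ratio. Around IAA29 the 10 nearest expressed genes, all with 2 copies, had medians of -0.03 in *AAA* and -0.07 in *AAa*. None (0 of 10) was called in *AAA* and 1 was lower in *AAa*. Around WES1 the medians were 0.11 and 0.10, with 2 of 10 genes higher in *AAA*, and 1 higher and 1 lower in *AAa*. Of all expressed genes 11.3% were called higher and 3.04% lower in *AAA*, and 14.2% and 6.82% in *AAa*. The counts around IAA29 and WES1 cannot be set apart from these shares. One of the neighbours of WES1, AT4G27300, had a log2 ratio of 1.64 in *AAA*, and it was singled out after its value was seen.

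**Figure D3:**
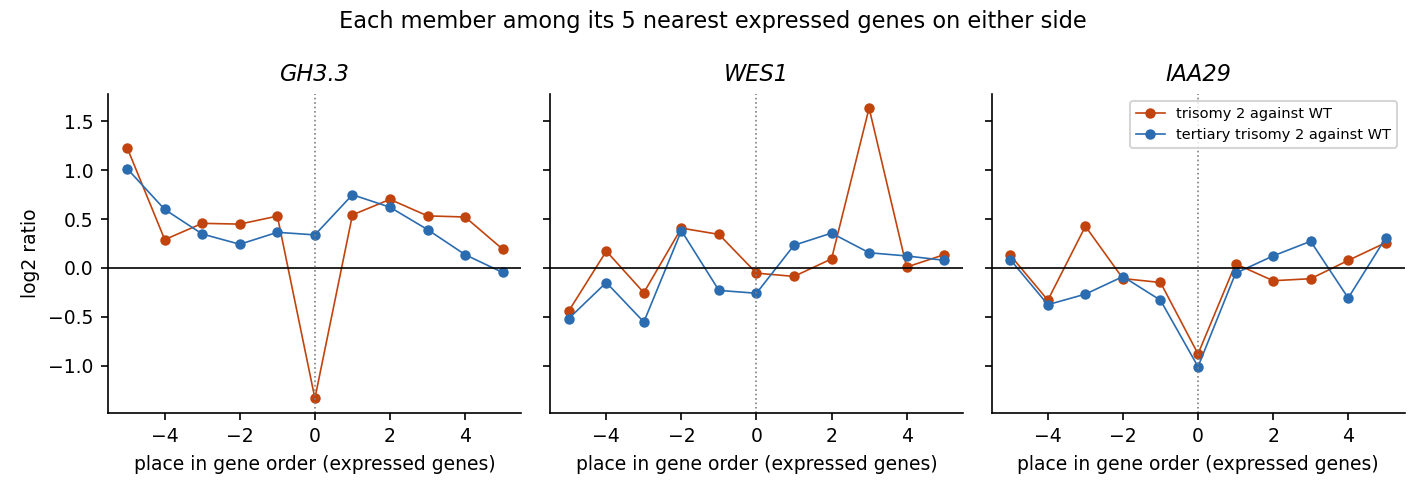
Log2 ratio to WT (vertical axis) of each member (place 0) and of the 5 nearest expressed genes on either side in chromosome order (horizontal axis), in *AAA* and *AAa*. GH3.3 drops to -1.33 in *AAA* between genes that lie between 0.19 and 1.23, and IAA29 drops in both trisomics between genes that lie between -0.37 and 0.43.

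IAA29, the Aux/IAA repressor, was lower in both trisomics. Its deposited signal was 176.5 and 195 in *AAA* and 156 and 194 in *AAa*, against 345 and 378 in WT. All 4 trisomic arrays were below both WT arrays, and the *AAA* and *AAa* arrays overlapped. The centred mean was 191 ± 14.9 in *AAA*, 176 ± 29.7 in *AAa* and 351 ± 22.4 in WT (SD, n = 2 each). IAA29 fell to 0.544 of the WT level in *AAA* (log2 ratio -0.88, SE 0.18, interval -1.26 to -0.49, adjusted p = 0.00353). It fell to 0.497 of the WT level in *AAa* (log2 ratio -1.01, SE 0.18, interval -1.39 to -0.62, adjusted p = 0.00102). Both ratios rest on the same 2 WT arrays. Between the trisomics the log2 ratio of *AAa* to *AAA* was -0.13 (SE 0.18, adjusted p = 0.664), and its interval from -0.52 to 0.26 does not show that they were equal. Of the non-triplicated genes 3.49% were called lower in *AAA* and 7.81% in *AAa*. In each of these comparisons 47 of the 7244 expressed genes had a lower ratio to WT than IAA29.

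WES1, the other IAA-conjugating enzyme, passed no test. Its deposited signal was 138 and 150 in *AAA* and 160.0 and 103 in *AAa*, against 169.5 and 148 in WT. The 3 karyotypes overlapped, and the *AAa* arrays held both the second highest and the lowest of the 6 values. The centred mean was 148 ± 9.81 in *AAA*, 131 ± 38.5 in *AAa* and 154 ± 14.9 in WT (SD, n = 2 each). The log2 ratio to WT was -0.05 in *AAA* (SE 0.23, interval -0.55 to 0.44, adjusted p = 0.921) and -0.26 in *AAa* (interval -0.75 to 0.24, adjusted p = 0.489). *AAa* differed from *AAA* by -0.21 (interval -0.70 to 0.29, adjusted p = 0.583). The sign of both *AAa* values rests on array 2 of that karyotype: without it the log2 ratio was 0.0455 to WT and 0.10 to *AAA*. A change of WES1 as large as that of GH3.3 or IAA29 in *AAA* lay outside its interval there, whereas the interval in *AAa* reached -0.75.

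The order of the levels was therefore *AAa*, WT and *AAA* for GH3.3, with *AAa* and WT not separated by the test, WT above *AAA* and *AAa* for IAA29, with the trisomics not separated, and WT, *AAA* and *AAa* for WES1, with no pair separated. In all, 2 of 3 members were called in *AAA* against WT, where 14.4% of all expressed genes were called. In *AAa* against WT 1 of 3 was called, where 21.0% of genes were, and in *AAa* against *AAA* 1 of 3, where 22.4% were. A count over 3 genes cannot be set apart from such shares. For a single gene, an exact permutation of 4 arrays in 2 groups allows no p under 0.333, so the calls come from limma. There each gene borrows its spread mostly from the other genes, with 13.5 prior and 3 residual degrees of freedom. Groups of 2 arrays that do not overlap are no test by themselves, and the share of all genes that show this was not counted.

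Of 146 loci listed for the auxin pathway 24 could be named on the arrays: 11 of the GH3 family, 7 of the Aux/IAA family, 3 of auxin synthesis and 3 others. These 3 were AT1G14130, AT1G14120 and UGT84B1, from the list for conjugate hydrolysis, oxidation and glucosylation. The listed SAUR, receptor, auxin response factor and transport genes were not analysed here, because the annotation used did not pair them with a probe set. Of the 24 genes 7 were expressed, and the other 17 gave deposited signals between 0.619 and 66.3. In *AAA* 0 of the 7 rose and 2 fell (GH3.3 and IAA29), where 11.3% of all expressed genes rose and 3.04% fell. In *AAa* 0 rose and 1 fell (IAA29), where 14.2% of all expressed genes rose and 6.82% fell. In *AAa* against *AAA* 1 was higher (GH3.3) and 0 lower, where 10.7% of all expressed genes were higher and 11.7% lower. Their median log2 ratio was -0.05 in *AAA*, -0.04 in *AAa* and -0.05 between the trisomics, beside 0.04, 0.05 and -0.00 over all expressed genes. The 7 include GH3.3, WES1 and IAA29, which were chosen with earlier results of these data known. Every call among the 7 was of GH3.3 or IAA29, and GH3.9, IAA18, YUC2 and AT1G14130 were called in no comparison with the settings used. These counts therefore show no change of the auxin lists beyond the members.

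GH3.9, a further GH3 family gene, lies on chromosome 2 beyond AUR2 and has 3 copies in *AAA* only. Its deposited signal was 407 and 447 in *AAA* and 435 and 412 in *AAa*, against 377 and 302 in WT. All 4 trisomic arrays exceeded both WT arrays, with *AAA* and *AAa* overlapping although their copies differ. The log2 ratio was 0.42 in *AAA* (SE 0.15, adjusted p = 0.0803) and 0.38 in *AAa* (adjusted p = 0.0972), and neither passed. In *AAA* the result depended on WT array 1: without that array the ratio was 0.58 with an adjusted p of 0.0436. Without WT array 2 it was 0.26 in *AAA* (adjusted p = 0.398) and 0.21 in *AAa* (adjusted p = 0.454). GH3.17, which has 2 copies, was under the limit for an expressed gene everywhere, with 37.9 and 43.9 in *AAA* and between 24.4 and 32.5 in *AAa*, against 13.4 and 18.1 in WT, and with no filter on dim genes its adjusted p in *AAA* was 0.218. GH3.1, with 3 copies in both trisomics, gave signals between 1.43 and 19.3, and with no filter its adjusted p-values in the 3 comparisons were at least 0.296.

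IAA18, a further Aux/IAA repressor with 2 copies, differed little between karyotypes. Its deposited signal was 646 and 594 in *AAA* and 687 and 643 in *AAa*, against 725 and 687 in WT. The log2 ratio to WT was -0.11 in *AAA* (interval -0.38 to 0.17, adjusted p = 0.671) and -0.04 in *AAa* (interval -0.31 to 0.23, adjusted p = 0.868). The IAA29 ratios of -0.88 and -1.01 lie outside both intervals. The remaining 5 named Aux/IAA genes, IAA20, IAA30, IAA31, IAA33 and IAA34, were all under the limit, with signals between 1.88 and 50.4.

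**Figure D4:**
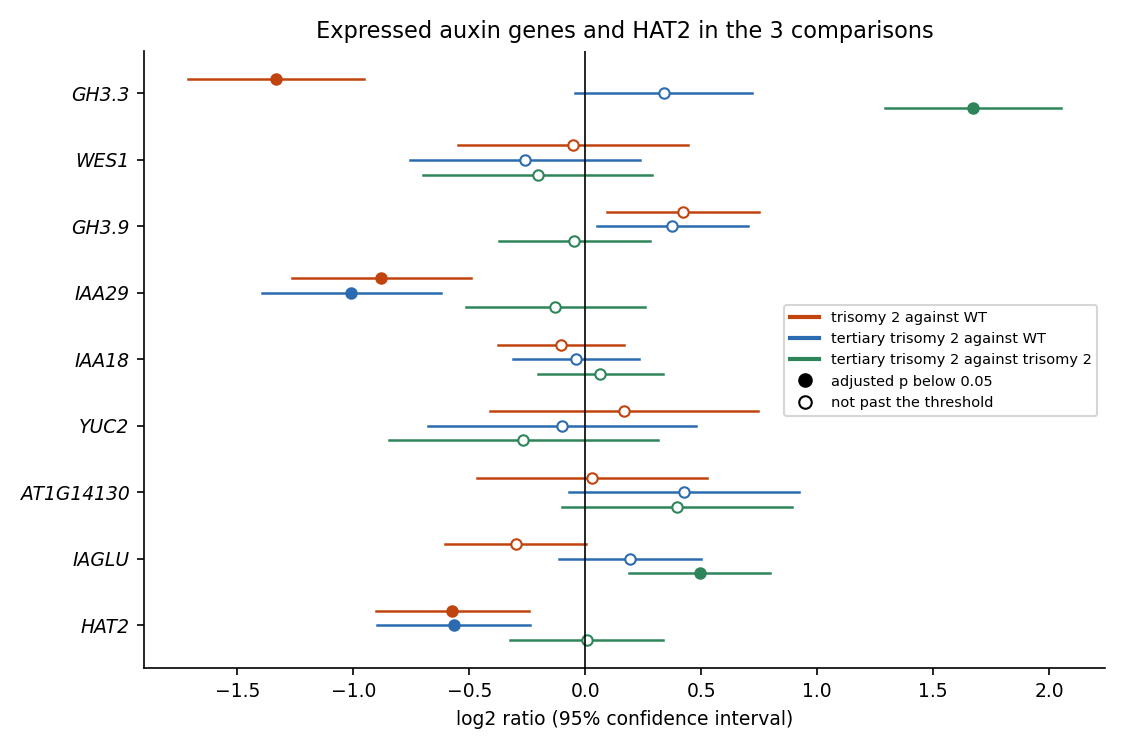
Log2 ratio (horizontal axis) with its 95% confidence interval for the 7 expressed genes of the auxin lists, IAGLU and HAT2, in *AAA* against WT, *AAa* against WT and *AAa* against *AAA*; filled points passed an adjusted p of 0.05 and open points did not. Among the 7, filled points appear for GH3.3 and IAA29.

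Of the genes listed for auxin synthesis and for conjugate hydrolysis, oxidation and glucosylation, YUC2 and AT1G14130 were expressed, and neither passed a test. YUC2, a flavin monooxygenase of auxin synthesis, had signals of 124 and 102 in *AAA* and 88.5 and 104 in *AAa*, against 134 and 84.0 in WT, with adjusted p-values of 0.766 and 0.840 to WT. AT1G14130, of the list for conjugate hydrolysis, oxidation and glucosylation, had log2 ratios to WT of 0.03 in *AAA* and 0.43 in *AAa* (adjusted p = 0.959 and 0.223). Over the alternatives its ratio ran from -0.24 to 0.30 in *AAA* and from 0.16 to 0.69 in *AAa*, and that of YUC2 from -0.17 to 0.51 and from -0.44 to 0.24, with 0 calls. A search of the annotation by name, made after the members had been examined, added IAGLU and YUC11. IAGLU is named as a glucosyltransferase of indole-3-acetic acid, an activity that was not measured here, and YUC11 was under the limit. IAGLU gave 328 and 308 in *AAA* and 442 and 476 in *AAa*, against 422 and 406 in WT. The *AAa* arrays were highest and the *AAA* arrays lowest, with no overlap, and the share of all genes in this order was not counted. IAGLU was 1.41-fold higher in *AAa* than in *AAA* (log2 ratio 0.49, SE 0.14, adjusted p = 0.0211), and its ratios to WT of -0.30 in *AAA* and 0.19 in *AAa* did not pass (adjusted p = 0.194 and 0.383). This call ended without any 1 of the 4 trisomic arrays, with log2 ratios from 0.42 to 0.56 and adjusted p-values from 0.0538 to 0.147.

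Of 13 listed genes of the shade response 1 could be named, HAT2, a homeodomain-leucine zipper transcription factor gene that is induced by auxin. Its deposited signal was 401 and 469 in *AAA* and 461 and 432 in *AAa*, against 785 and 594 in WT. On all 4 trisomic arrays the signal was below that on both WT arrays. HAT2 fell to 0.672 of the WT level in *AAA* (log2 ratio -0.57, SE 0.16, adjusted p = 0.0194) and to 0.675 in *AAa* (log2 ratio -0.57, SE 0.16, adjusted p = 0.0165). Both sizes rest on the higher WT array: without WT array 1 they were -0.37 and -0.37, with adjusted p-values of 0.200 and 0.164. The calls also ended with no filter on dim genes (0.0614 and 0.0516) and without an intensity trend (0.0673 and 0.0558). In addition, the call in *AAA* ended without *AAA* array 1 (-0.45, adjusted p = 0.185), and the call in *AAa* without *AAa* array 1 (-0.60, adjusted p = 0.0687) or array 2 (-0.54, adjusted p = 0.0942). The *AAa* to *AAA* log2 ratio was 0.01 (interval -0.32 to 0.34).

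Some measures of the tissue and the RNA differed in level between the karyotypes while others overlapped, and their part in these results was not tested. RCA, the gene for Rubisco activase, stood for 6 listed leaf markers. It gave signals between 39280 and 48050 in *AAA* and between 28100 and 32030 in *AAa*, against 42830 and 46460 in WT, and fell in *AAa* (log2 ratio to WT -0.53, adjusted p = 0.0129). That call ended under quantile normalization (-0.12), without an intensity trend, when dim genes were kept, and on the loss of *AAa* array 1 (-0.42) or WT array 1 (-0.47). Of the other markers listed, AUR1 stood for 10 genes of dividing cells, with 118 and 112 in *AAA*, 185 and 110 in *AAa*, and 198 and 130 in WT, and its adjusted p-values were at least 0.375. The root markers PYK10 and EXPA7 were under the limit on every array, with up to 23.8 and 9.87 in *AAA* and 46.4 and 44.1 in *AAa*, against 3.1 and 6.41 in WT. With no filter on dim genes PYK10, which has 3 copies in *AAa*, was called higher in *AAa* than in WT (log2 ratio 3.65, adjusted p = 0.0282), and EXPA7 was not (2.68, adjusted p = 0.0953). GI, which stood for 12 clock genes and whose level depends on the time of day, was at 924 and 722 in *AAA* and at 1113 and 1072 in *AAa*, against 770 and 876 in WT. GI rose in *AAa* (log2 ratio 0.46, adjusted p = 0.0252), a call that ended under 7 of 15 alternatives, among them the loss of WT array 1 (0.37) or of either *AAa* array (0.45 and 0.47). For ubiquitin, an RNA quality control of the array, the 3' probe set exceeded the 5' one by a log2 ratio of 1.68 and 1.56 in *AAA* and 1.14 and 1.35 in *AAa*, against 1.64 and 1.86 in WT. For GAPDH it was 0.25 and 0.32 in *AAA* and 0.48 and 0.07 in *AAa*, against 0.04 and 0.08 in WT, so that *AAA* lay above WT. For actin the groups overlapped, with 3.296 and 3.743 in *AAA* and 2.858 and 3.516 in *AAa*, against 3.510 and 3.902 in WT. In bulk leaf RNA, fewer cells that express a gene and less of its RNA per cell cannot be told apart.

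The genes whose profile over the 6 arrays was closest to each member were found by the root mean square difference of mean-subtracted log2 signals, and are given as a description without a test. For GH3.3 these were AT3G60470 (difference 0.147), Fes1A, whose product works with HSP70 chaperones under heat (0.178), AT5G66550 (0.213), AT3G11600 (0.233) and AT1G29240 (0.239). AT3G60470, AT5G66550 and AT1G29240 have 2 copies in every karyotype, and Fes1A and AT3G11600 have 3 in *AAa* only. None of the 5 has GH3.3's copy number, but only 410 of the 7244 expressed genes do, and a count over 5 genes cannot be set apart from that share. The centred signals of Fes1A, as an example, were 299 and 275 in *AAA* and 735 and 739 in *AAa*, against 744 and 780 in WT. For IAA29 the closest were AT1G49470 (0.088), AT5G25280 (0.114), AT1G10690 (0.141), AT4G28770 (0.145) and AT2G47880 (0.158). AT1G49470 gave 576 and 556 in *AAA* and 488 and 586 in *AAa*, against 1109 and 1188 in WT. AT2G47880 lay low in *AAA* although it has 3 copies there. For WES1 the closest were AT3G22070 (0.0436), AT4G30800 (0.0593), AT5G47690 (0.0679), AT4G14385 (0.0728) and CRR22 (0.0827). All 5 shared its dip on *AAa* array 2, which follows from their choice by profile. The members were not close to each other: the difference was 0.804 between GH3.3 and WES1, 0.773 between GH3.3 and IAA29, and 0.473 between WES1 and IAA29.

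**Figure D5:**
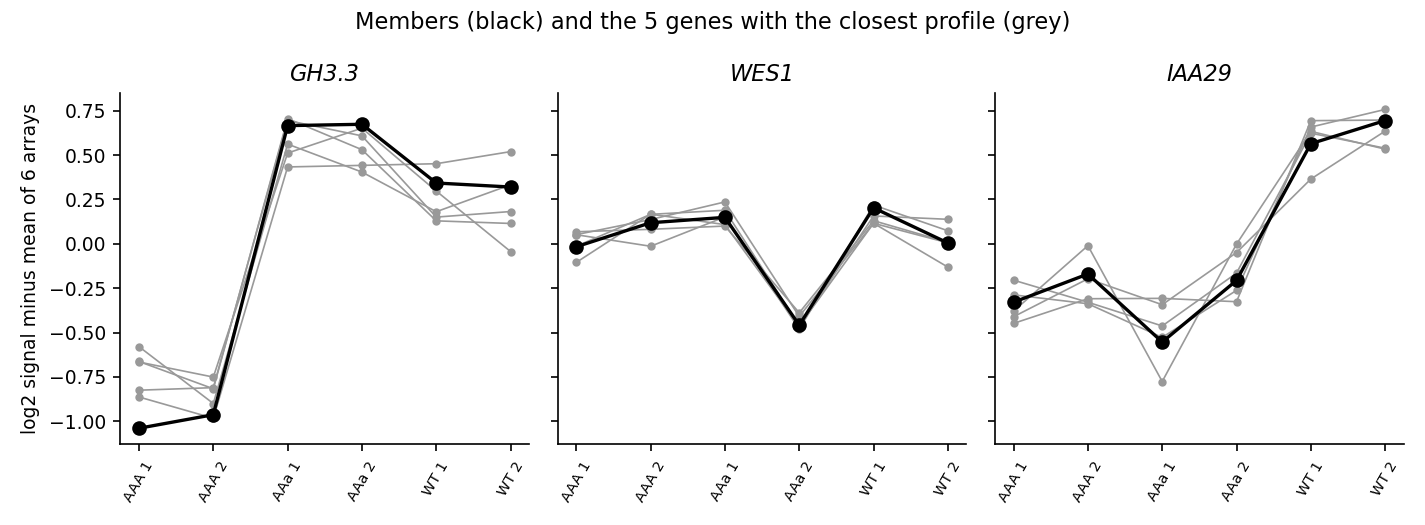
Log2 signal minus the gene's mean over 6 arrays (vertical axis) for each member (black) and its 5 closest genes (grey), array by array (horizontal axis; 1 and 2 are the arrays of a karyotype). GH3.3 and its closest genes are low on both *AAA* arrays, WES1 and its closest genes dip on *AAa* array 2, and IAA29 and its closest genes are high on both WT arrays. The grey genes were chosen for this likeness.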

How the data were processed

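RNA from rosette leaves was measured on 6 ATH1 arrays, grouped by the karyotype in their titles. The deposited values are linear probe set intensity values that the authors obtained with GCOS (version not given in the sources used here); the trimmed mean was 500.0 to 500.1 on every array. The study's own GC-RMA and vsn values were not used. Signals under 1 (246 to 489 per array) were set to 1, taken to log2, and centred on the median of expressed non-triplicated genes. Expressed means at or above the 40th percentile of 22746 probe sets in mean log2 signal. Of 22810 probe sets 13513 had 1 gene, 503 several and 8794 none in the annotation, which leaves most listed auxin genes unnamed; 13436 were matched to a locus and the brightest per gene was kept. Gene order and names came from RefSeq TAIR10.1. All 3 groups entered 1 fit in limma 3.58.1 (R 4.3.3) with an intensity trend, where 3 degrees of freedom were residual and 13.5 came from the prior. P-values are two-sided, with Benjamini-Hochberg adjustment over the 7244 expressed genes and a threshold of 0.05, which "rose", "fell" and "called" refer to. The number of arrays limits the precision.

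The members, gene lists and settings were chosen with earlier results of these data known. Named were the members, expressed GH3 and Aux/IAA genes, up to 4 genes of each other list (those of salicylic acid, senescence and flowers had 0 named genes), and the 5 closest profiles per member. Alternatives were other scalings, a floor of 16, no filter, no trend, fits of the 2 groups compared, adjustment over non-triplicated genes, the replicate number as a block, and each array left out.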

Additional observations from a re-analysis of the deposited data

Results flagged for a closer look

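Differences between the trisomics in their response, tested as *AAa* against *AAA* in the limma fit, passed the threshold for 3 of the expressed genes from the lists and the name search. Of all expressed genes 22.4% were called in this comparison, and a count over so few genes cannot be set apart from that share. Genes described only as neighbours or for their profile are not among the 3. Of the neighbours of WES1, AT4G27300 was lower in *AAa* (log2 ratio -1.48, adjusted p = 8.08e-07). GH3.3, with 3 copies in both, was higher in *AAa* by 1.67 on the log2 scale, and on both *AAa* arrays above both *AAA* arrays. IAGLU was higher by 0.49, and this call did not survive the loss of any 1 trisomic array. RCA, which has 2 copies in *AAa* and 3 in *AAA*, had a log2 ratio of -0.57, and lost its call without *AAa* array 1 (-0.46) or *AAA* array 2 (-0.42), under quantile normalization (-0.11), and when dim genes were kept.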

How the results depend on the processing

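GH3.3 in *AAA* against WT and in *AAa* against *AAA* passed under all 14 alternatives (log2 ratios from -1.42 to -1.29 and from 1.63 to 1.71, with adjusted p-values up to 0.00369 and 6.98e-04), and IAA29 in *AAA* and *AAa* against WT under all 15 (from -0.96 to -0.80 and from -1.18 to -0.84, with adjusted p-values up to 0.0486 and 0.0229). GH3.3 in *AAa* against WT passed under 0 of 14 (0.25 to 0.35). WES1 passed under 0 of 15 in each comparison, and its sign depended on single arrays: with 1 array left out its log2 ratio ran from -0.15 to 0.046 in *AAA* against WT, from -0.56 to 0.0455 in *AAa* against WT and from -0.51 to 0.10 in *AAa* against *AAA*. For IAA29 in *AAa* against *AAA* the range was -0.30 to 0.043. The count of all called genes moved more. In *AAA* against WT it was 1042, with 683 under no filter on dim genes, 268 when adjusted over non-triplicated genes alone, and 520 to 968 with 1 array left out. In *AAa* against WT it was 1523, with 654 over non-triplicated genes and 816 to 1350 with 1 array left out, and in *AAa* against *AAA* 1622, with 611 and 927 to 1729. Adjusted over non-triplicated genes, which leaves GH3.3 out by construction, 1 auxin gene was called in *AAA* against WT and 0 in *AAa* against *AAA*. The centring decides the split of calls: 78.9% of those in *AAA* were higher with the centring used and 60.8% with signals as deposited, where the median non-triplicated log2 ratio was -0.09. In *AAa* these shares were 67.6% and 57.5%, and 48.4% with centring on all expressed genes.

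Arrays of different karyotypes share replicate numbers, but same-numbered arrays did not deviate together (correlations from -0.05 to 0.02 over 7244 genes). With the replicate block GH3.3 in *AAA* kept its log2 ratio of -1.33, and no call of a member changed.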
